A study of Rattus norvegicus with 13 samples.

Results

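Glutamate receptors and the scaffold proteins that hold them at excitatory synapses were followed in the hypothalamus of 13 rats. The members were the genes whose symbols name an ionotropic receptor subunit (AMPA, kainate, NMDA or delta), a metabotropic receptor, or a scaffold of the Dlg, Dlgap, Shank or Homer families, with 1 row per symbol and an average over the 13 rats of 0.5 FPKM or more. FPKM counts sequenced fragments per kilobase of a transcript and relative to all mapped ones, so that long and short genes and large and small libraries can be set side by side. This gave 40 genes of the 17366 rows of the table, 26 receptors and 14 scaffolds, and all 40 were among the 11837 rows tested.

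The RNA came from whole hypothalamus, a region at the base of the forebrain that controls feeding, body fluids, temperature and hormone release. The 7 control rats ate standard chow with 0.30% fructose and the 6 fructose rats a diet with 55% fructose, from postnatal day 25 onward. Fasting was on day 79, and on day 80 each rat was killed 1 h after glucose (2 g per kg) or saline was injected into the peritoneum. The labels used here do not tie either injection to single rats. The rats were housed in pairs, so some may have shared a cage. Total FPKM lay between 556902 and 608058 per rat, and read depth is unknown. All 14 hypothalamic markers, Hcrt, Pmch, Oxt and Avp among them, averaged 0.5 FPKM or more. Limma called 0 of them, with 3 at an unadjusted p under 0.05 (1 by the exact permutation test), where 19.2% of all rows stood by limma. Some spread widely between rats, Oxt from 8.97 to 1455 FPKM on chow and from 2.035 to 359 FPKM on fructose. Pmch ran from 3607 to 7136 and from 1345 to 5669 FPKM, so 0 calls do not show equal levels. Of 16 thalamus markers 11 were called lower on fructose, of 11 midbrain dopamine neuron markers 11 were called higher, and of 4 blood markers 3 were called higher. These lists are taken up again after the members.

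Glutamate is the main excitatory transmitter of the brain. AMPA, kainate and NMDA receptors are ion channels built from several subunits, whereas metabotropic receptors signal through G proteins. Beneath the membrane, Dlg proteins (the MAGUKs) bind receptor tails, Dlgap proteins (SAPAPs) bind the MAGUKs, Shank proteins bind the SAPAPs, and Homer proteins link Shank to group I metabotropic receptors.

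Sequences are shown first for the members the results turn on. Promoter windows of 250 bases before the start came from RefSeq (GRCr8), which held one for 23 of the 40 genes. Of the 4 genes that fell on fructose, Dlgap4 (chr3:165584110-165584359), Grm7 (chr4:145286476-145286725) and Shank3 (chr7:122448073-122448322) had a window, all on the plus strand, and Dlg3 is named only. Capitals mark the GC box, GGGCGG, on either strand.
Dlgap4: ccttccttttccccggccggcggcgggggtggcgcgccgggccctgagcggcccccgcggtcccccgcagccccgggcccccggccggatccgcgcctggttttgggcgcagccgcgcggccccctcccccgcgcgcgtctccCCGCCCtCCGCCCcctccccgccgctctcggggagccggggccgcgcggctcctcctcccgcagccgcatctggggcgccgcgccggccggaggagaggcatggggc
Grm7: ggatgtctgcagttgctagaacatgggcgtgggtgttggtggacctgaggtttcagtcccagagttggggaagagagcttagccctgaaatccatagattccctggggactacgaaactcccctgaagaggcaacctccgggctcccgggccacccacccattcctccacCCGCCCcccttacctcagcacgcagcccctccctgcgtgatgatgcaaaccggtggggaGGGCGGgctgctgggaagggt
Shank3: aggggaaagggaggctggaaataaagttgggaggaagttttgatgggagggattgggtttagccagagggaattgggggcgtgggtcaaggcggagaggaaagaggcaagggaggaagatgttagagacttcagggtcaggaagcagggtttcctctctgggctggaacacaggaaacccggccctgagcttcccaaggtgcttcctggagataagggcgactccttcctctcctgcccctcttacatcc

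The windows of Dlgap4 and Grm7 held 2 GC boxes each and that of Shank3 held 0. The box stood in 4 of the 24 member windows (16.7%), against 30.5% of all 33469 windows of this length. CpG dinucleotides numbered 40 in the Dlgap4 window, 9 in Grm7 and 4 in Shank3, with a median of 6.5 over the member windows and 5 over all.

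The row of the AMPA subunit Gria2 is joined in the deposited table with Mir2985, a microRNA gene that lies within the span of Gria2 in RefSeq (GRCr8, minus strand). Its sequences are shown because 1 rat stood far above the others in this row. In the hairpin (chr2:168254500-168254609) capitals mark the mature miRNA, and in the mature miRNA they mark the seed, bases 2 to 8.
Mir2985 hairpin: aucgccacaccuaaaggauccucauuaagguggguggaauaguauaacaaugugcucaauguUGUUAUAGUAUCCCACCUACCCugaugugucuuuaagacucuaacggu
rno-miR-2985: uGUUAUAGuaucccaccuaccc

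In the comparison of diets 3 scaffold genes and 1 presynaptic metabotropic receptor were lower on fructose. Of the 40 members 4 fell and 0 rose (limma, Benjamini-Hochberg adjusted p under 0.05 over all 11837 rows), namely Grm7, Dlgap4, Dlg3 and Shank3. Of all rows 3.94% passed, 2.27% lower and 1.66% higher. The fold change was negative in 29 members and positive in 11, with a median log2 fold change of -0.17 against 0.0009 over all rows tested. At an unadjusted p under 0.05 stood 16 members, 15 lower and 1 higher, or 40.0%, where 19.2% of all rows did. Among the 14 scaffolds 3 fell and 12 had a negative fold change (median -0.27), and among the 26 receptors 1 fell and 17 had a negative fold change (median -0.10). In RNA of a whole tissue, fewer cells of a type and less RNA per cell cannot be told apart. In what follows, levels run from the lowest rat through the median to the highest, means carry the SD over 7 chow or 6 fructose rats, and differences are log2 fold changes of fructose against chow with their SE.

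**Figure D1:**
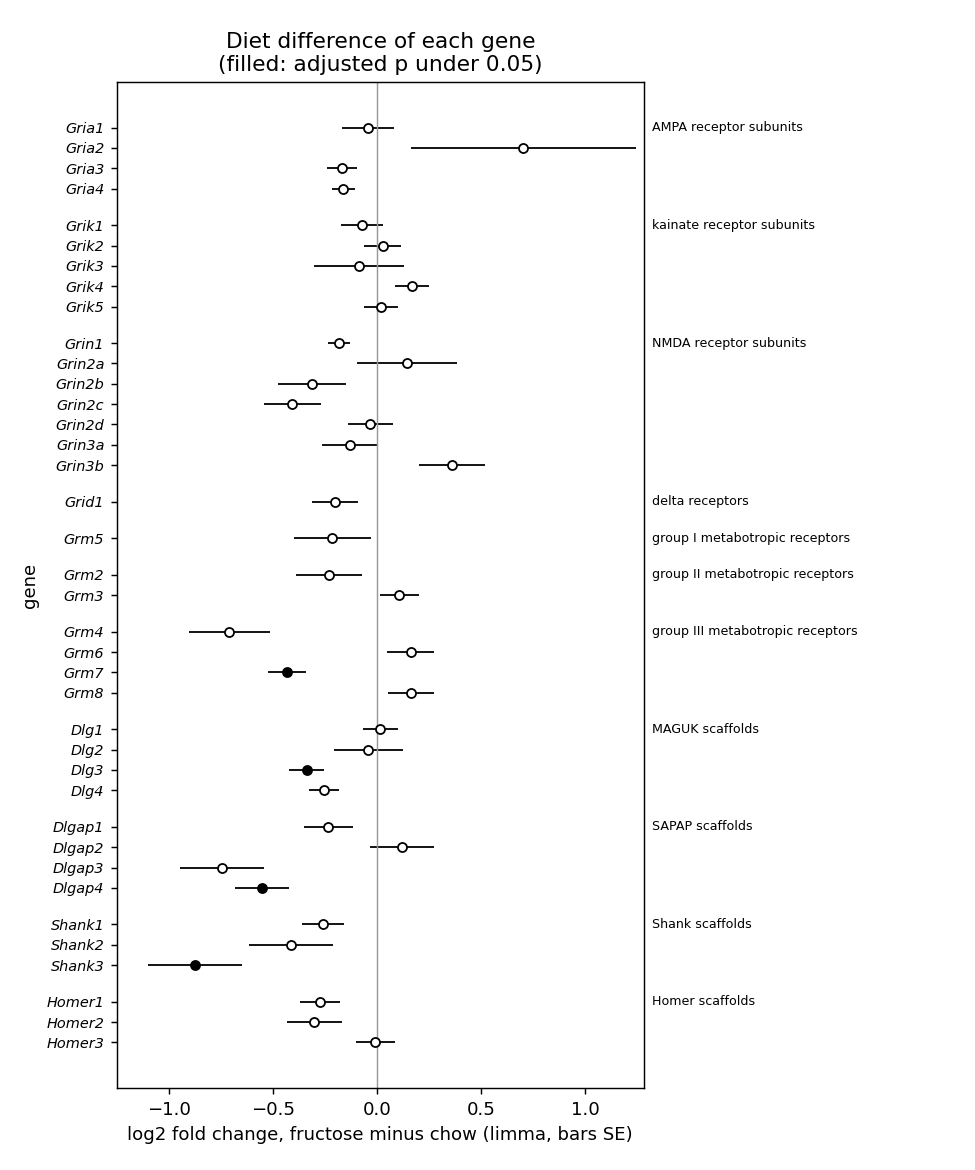
Log2 fold change of 38 of the 40 genes (horizontal axis, fructose minus chow on the log2(FPKM + 0.5) scale) with its SE from limma, grouped by role. Grm7, Dlgap4, Dlg3 and Shank3, the 4 genes with an adjusted p under 0.05, all lie left of 0, and Gria2 has the widest bar, with 1 rat at 939 FPKM.

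Shank3, a master scaffold of the postsynaptic density linked to autism, ran from 31.5 through 46.3 to 78.9 FPKM on chow and from 13.6 through 28.9 to 35.5 FPKM on fructose. In 6 of 7 chow rats it lay above every fructose rat, chow replicate 1 being the exception. Shank3 fell from 50.1 ± 15.5 (SD, n = 7) to 27.4 ± 8.68 FPKM (SD, n = 6), which is -0.87 ± 0.23 as a log2 fold change with its SE (limma adjusted p = 0.0453) and the largest fall among the 40 genes. Shank1, its brain-specific relative, was the most abundant Shank gene at 55.02 ± 7.80 on chow and 45.9 ± 6.50 FPKM on fructose (-0.26 ± 0.10, limma adjusted p = 0.172). Shank2 stood at 3.96 ± 1.26 on chow and 2.82 ± 0.848 FPKM on fructose (-0.41 ± 0.20, limma adjusted p = 0.281), so neither passed.

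Dlgap4, an adaptor between MAGUKs and Shank, ran from 38.3 through 47.7 to 70.9 FPKM on chow and from 26.5 through 32.8 to 40.0 FPKM on fructose. Again 6 of 7 chow rats lay above every fructose rat, and 4 of 6 fructose rats lay below every chow rat. The fall was from 50.3 ± 10.8 to 33.8 ± 5.20 FPKM (-0.55 ± 0.13, limma adjusted p = 0.0338). Dlgap3, a SAPAP whose loss in mice is known for compulsive grooming, lay just outside the threshold at 60.2 ± 16.03 on chow and 35.97 ± 10.1 FPKM on fructose (-0.75 ± 0.20, limma adjusted p = 0.0522). Dlgap1 differed by -0.23 ± 0.12 and Dlgap2, the scarcest of the family at 1.99 FPKM over all rats, by 0.12 ± 0.15, and neither passed.

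Dlg3, a MAGUK that binds NMDA receptors, ran from 23.8 through 28.9 to 34.8 FPKM on chow and from 18.7 through 23.4 to 25.1 FPKM on fructose. The overlap came from chow replicate 6, which was below 2 of the 6 fructose rats. The Dlg3 mean fell from 28.99 ± 3.37 on chow to 22.8 ± 2.42 FPKM on fructose (-0.34 ± 0.085, limma adjusted p = 0.0400). Dlg4, the main MAGUK of excitatory postsynaptic densities and the most abundant scaffold, ran from 155 through 172 to 180.3 FPKM on chow and from 112 through 150.1 to 156 FPKM on fructose. It missed the threshold (-0.26 ± 0.071, limma adjusted p = 0.0596), although 5 of 6 fructose rats lay below every chow rat. Dlg1 and Dlg2 differed by 0.016 ± 0.085 and -0.043 ± 0.17.

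Homer proteins tie group I metabotropic receptors to Shank, and none of the 3 genes passed. Homer1 stood at 7.26 ± 0.685 on chow and 5.94 ± 0.884 FPKM on fructose (-0.27 ± 0.096, limma adjusted p = 0.125), with 6 of 7 chow rats above every fructose rat. Homer2 differed by -0.30 ± 0.13 (limma adjusted p = 0.218). Homer3, the most abundant of the family at 13.1 ± 1.48 on chow and 13.02 ± 1.79 FPKM on fructose, differed by -0.0086 ± 0.093 (limma adjusted p = 0.977), and its sign turned under quantile normalization.

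Grm7, a group III metabotropic receptor of presynaptic terminals that lowers transmitter release, ran from 16.7 through 18.8 to 24.8 FPKM on chow and from 12.1 through 14.2 to 16.6 FPKM on fructose. The diets did not overlap, every one of the 6 fructose rats being below every chow rat. This held for 1 of 40 members (2.5%), where it held for 0.727% of all rows, and 0 members had all fructose rats above all chow rats, where 0.879% of all rows had. Grm7 fell from a mean of 19.5 ± 2.80 to one of 14.3 ± 1.51 FPKM (-0.43 ± 0.091, limma adjusted p = 0.0263). The exact two-sided permutation test gave p = 0.00117. After adjustment this was 0.0738, where the lowest of all 11837 rows was 0.0663, so that 0 rows passed by this test and its adjusted values set no gene apart.

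The other metabotropic receptors did not pass. Grm4, the most abundant group III receptor, ran from 22.02 through 30.97 to 47.7 FPKM on chow and from 11.98 through 19.2 to 27.6 FPKM on fructose (-0.71 ± 0.19, limma adjusted p = 0.0558). As a share of the summed group III FPKM, Grm4 ran from 44.03 through 52.3 to 59.8% on chow and from 35.6 through 44.2 to 55.2% on fructose, and Grm8 from 9.31 through 12.8 to 18.2% and from 13.2 through 20.2 to 23.9%, with overlap between the diets in both. Grm8 itself differed by 0.16 ± 0.11 and Grm6, best known from the retina, by 0.16 ± 0.11. Grm5, a group I receptor coupled to phospholipase C, stood at 8.45 ± 2.05 on chow and 7.24 ± 2.12 FPKM on fructose (-0.22 ± 0.18, limma adjusted p = 0.584), with overlap between the diets. In group II, whose members inhibit adenylyl cyclase, Grm3 was the more abundant at 24.5 ± 2.46 on chow and 26.5 ± 4.12 FPKM on fructose (0.11 ± 0.093, limma adjusted p = 0.593), and Grm2 differed by -0.23 ± 0.16.

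**Figure D2:**
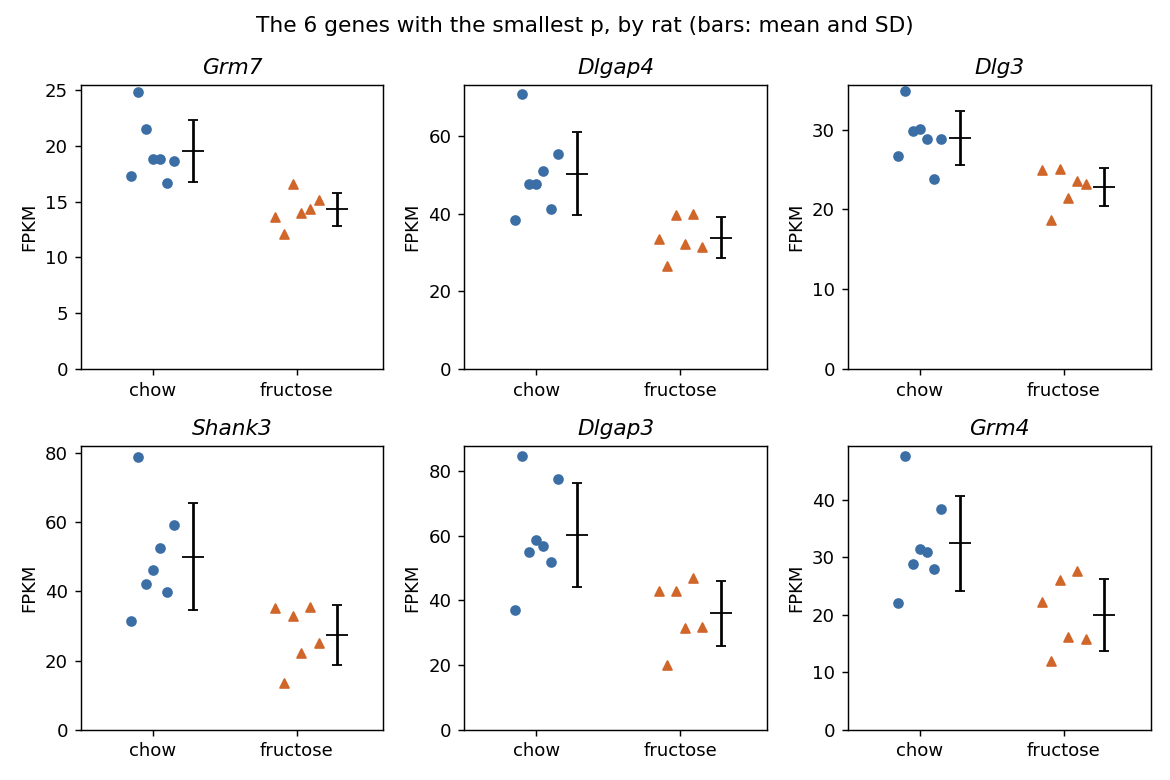
FPKM of the 6 members with the smallest p (Grm7, Dlgap4, Dlg3, Shank3, Dlgap3 and Grm4) in each rat, on vertical axes from 0, for chow (n = 7) and fructose (n = 6), with the mean and SD. The diets do not overlap in Grm7 and overlap in the other 5, and chow replicate 2 is the highest point of each panel.

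Of the 18 ionotropic receptor genes limma called 0, with 5 at an unadjusted p under 0.05, and also 5 by the exact permutation test. Of all 11837 rows 2269 (19.2%) stood at that level by limma and 2223 by the exact test. Grin1, the subunit that every NMDA receptor needs, was the most abundant member, from 160.3 through 169 to 199 FPKM on chow and from 136 through 153 to 161 FPKM on fructose. In 5 of 6 fructose rats it lay below every chow rat, and it differed by -0.18 ± 0.055 (limma adjusted p = 0.0728). Among its Grin2 partners, which set the kinetics of the channel, Grin2c came first at 28.6 FPKM over all rats and Grin2d next at 13.5, whereas Grin2b stood at 1.93 and Grin2a at 1.48 FPKM. Grin2c made up 64.8 ± 6.81% of the summed Grin2 FPKM on chow and 59.2 ± 3.77% on fructose, and Grin2d 28.2 ± 7.29% and 32.98 ± 3.28%, with overlap between the diets in both. Grin2c itself stood at 32.4 ± 7.23 on chow and 24.04 ± 3.69 FPKM on fructose (-0.41 ± 0.14, limma adjusted p = 0.117). Grin3b was the member with a positive fold change at an unadjusted p under 0.05, at 1.46 ± 0.372 on chow and 2.03 ± 0.568 FPKM on fructose (0.36 ± 0.16, limma adjusted p = 0.224). Grin2b, Grin2a, Grin2d and Grin3a differed by -0.31 ± 0.16, 0.14 ± 0.24, -0.032 ± 0.11 and -0.13 ± 0.13.

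Kainate receptors had 0 genes called and 0 at an unadjusted p under 0.05 by limma, and 0 at that unadjusted level by the exact permutation test. Grik5, a subunit that needs a partner of the Grik1 to Grik3 group, was the most abundant at 40.1 ± 4.40 on chow and 40.6 ± 4.76 FPKM on fructose (0.017 ± 0.082, limma adjusted p = 0.943). It took 45.9 ± 1.58% of the summed kainate FPKM on chow and 45.3 ± 2.90% on fructose. Grik4, of the same kind, differed by 0.17 ± 0.081 (limma adjusted p = 0.274), and Grik1, Grik2 and Grik3 by -0.073 ± 0.10, 0.026 ± 0.091 and -0.087 ± 0.22. Grid1, a delta receptor, which binds cerebellins, stood at 18.96 ± 2.77 on chow and 16.5 ± 2.81 FPKM on fructose (-0.20 ± 0.11, limma adjusted p = 0.345).

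AMPA receptors carry fast excitation, and their Gria2 subunit limits the entry of calcium. Gria4 stood at 59.6 ± 3.16 on chow and 53.4 ± 4.58 FPKM on fructose (-0.16 ± 0.057, limma adjusted p = 0.127), and Gria3 and Gria1 differed by -0.17 ± 0.072 and -0.044 ± 0.12. The joined row of Gria2 stood between 49.7 and 66.1 FPKM in 12 rats and at 939 FPKM in fructose replicate 4, 14.2 times the next highest rat. Over all rats it came to 54.1 ± 5.65 on chow and 202 ± 361 FPKM on fructose (0.70 ± 0.54, limma adjusted p = 0.526). Without fructose replicate 4 the other 5 fructose rats stood at 54.7 ± 1.94 FPKM, and the log2 fold change was 0.021 ± 0.066 (limma adjusted p = 0.916). Gria2 made up 29.6 ± 1.59% of the summed AMPA FPKM on chow and 31.6 ± 1.36% in those 5 fructose rats, against 89.2% in fructose replicate 4. How the joined row divides between Gria2 and the microRNA was not tested.

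**Figure D3:**
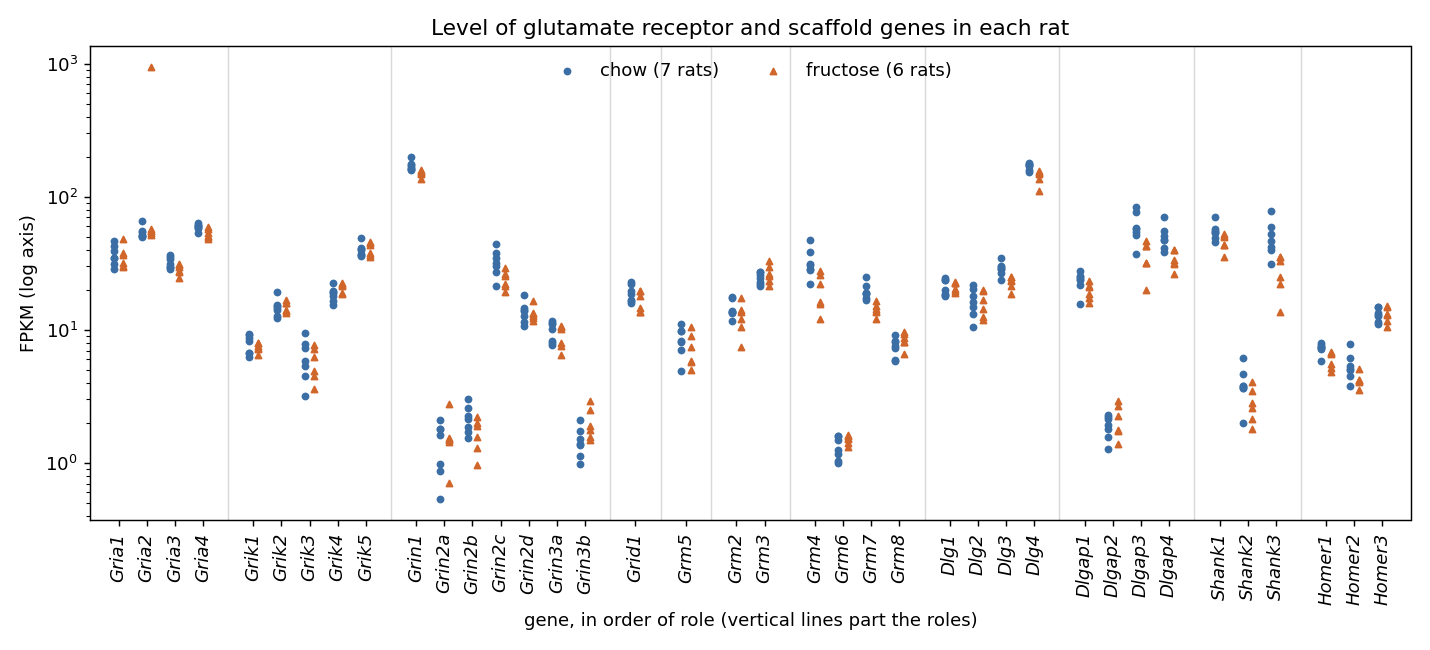
FPKM (log axis) of 38 of the 40 genes in each of 7 chow and 6 fructose rats, in order of role. Grin1 and Dlg4 lie highest in most rats, Grin2a, Grin2b, Grin3b, Grm6 and Dlgap2 lie lowest, and 1 fructose point at 939 FPKM stands above the other Gria2 points.

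Levels per transcript length ran from 1.40 FPKM for Grm6 to 162 FPKM for Grin1 as means over 13 rats, with a median of 17.3 over the members against 15.5 over all rows tested. Grin1 and Dlg4, the most abundant receptor and scaffold, did not differ beyond their spread on chow, at 172 ± 13.4 and 169.7 ± 9.43 FPKM. In 26 members the mean was at least 10 FPKM, and 5 lay under 2 FPKM.

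The same rats stood at the ends in many members. Fructose replicate 2 was the lowest rat in 18 of the 40 and chow replicate 2 the highest in 19, and both held in 15, of which 12 were among the 16 at an unadjusted p under 0.05. These were also the lowest and the highest rat for the summed FPKM of the 16 thalamus markers, though not for each marker. The list includes Prkcd, Tcf7l2, Lef1, Zic1 and the glutamate transporter gene Slc17a7, and 0 of its genes were at 0 in all rats. The markers summed to 728 to 1951 FPKM on chow and 485 to 1142 FPKM on fructose, and all 16 had a negative fold change (median -1.20). Their mean log2 level was 5.35 ± 0.52 on chow (SD, n = 7) and 4.14 ± 0.71 on fructose (SD, n = 6).

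Within each diet alone Shank3 moved with the thalamus level, in 8 relations tested for the 4 genes over 7 chow and 6 fructose rats. For Shank3 Pearson r was 0.953 and 0.955 on chow and fructose (exact permutation p = 0.00159 and 0.00139, adjusted p = 0.00635 and 0.00635). Spearman rho was 0.964 and 1.0 (exact permutation p = 0.00278 and 0.00278, adjusted p = 0.00741 and 0.00741), and r without the 2 farthest rats was 0.955 and 0.992. For Dlgap4 Pearson r was 0.908 and 0.897 on chow and fructose (exact permutation p = 0.00754 and 0.0153, adjusted p = 0.0201 and 0.0306). Spearman rho was 0.964 and 0.886 (exact permutation p = 0.00278 and 0.0333, adjusted p = 0.00741 and 0.0667), and r without the 2 farthest rats was 0.892 and 0.647. Dlgap4 thus passed adjustment by Pearson r in both diets and by rho on chow alone, and on fructose its r was lower without those 2 rats. For Dlg3 Pearson r was 0.647 and 0.839 on chow and fructose (exact permutation p = 0.114 and 0.0375, adjusted p = 0.151 and 0.0600). Spearman rho was 0.786 and 0.771 (exact permutation p = 0.0480 and 0.103, adjusted p = 0.0768 and 0.137), and r without the 2 farthest rats was 0.470 and 0.917. For Grm7 Pearson r was 0.615 and 0.509 on chow and fructose (exact permutation p = 0.141 and 0.304, adjusted p = 0.162 and 0.304). Spearman rho was 0.607 and 0.371 (exact permutation p = 0.167 and 0.497, adjusted p = 0.191 and 0.497), and r without the 2 farthest rats was 0.027 and 0.113. For Dlg3 and Grm7 no relation passed adjustment.

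With the thalamus level as a covariate limma called 0 of the 40 members, and 1, Grin2a, stood at an unadjusted p under 0.05 (0.77 ± 0.28, limma adjusted p = 0.441). The diet difference of Shank3 was then 0.014 ± 0.11, of Dlgap4 -0.11 ± 0.10, of Dlg3 -0.10 ± 0.094 and of Grm7 -0.25 ± 0.12. Dlgap3 came to 0.057 ± 0.087 and Grm4 to 0.058 ± 0.092. The covariate itself differs between the diets. In this fit 29 of the 11837 rows passed, and 977 stood at an unadjusted p under 0.05. Of the hypothalamic markers, Pmch (-1.71 ± 0.24, limma adjusted p = 0.00898) and Hcrt (-1.66 ± 0.28, limma adjusted p = 0.0207) were called lower in it. Among the other lists, pan-neuronal markers summed to 2728 to 3543 FPKM on chow and 2725 to 3213 FPKM on fructose, and limma called 0 of 10, while 1 had an unadjusted p under 0.05. Of these 10 markers 9 had a negative fold change (median -0.11). All 7 astrocyte, 7 oligodendrocyte, 5 oligodendrocyte precursor and 6 endothelial markers had a positive one. Midbrain dopamine markers summed to 85.8 to 124 and 219.5 to 599 FPKM, blood markers to 175 to 422 and 352 to 1532 FPKM, and astrocyte markers to 1964 to 2325 and 2278 to 2608 FPKM with 2 of 7 called higher. The part of these lists in the result was not tested. Of 8 striatal markers 2 were called higher and of 7 markers of cortex and hippocampus 1 was, while 4 of 6 cerebellar markers (Pcp2, Gabra6, Cbln3 and Fat2) averaged under 0.5 FPKM.

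**Figure D4:**
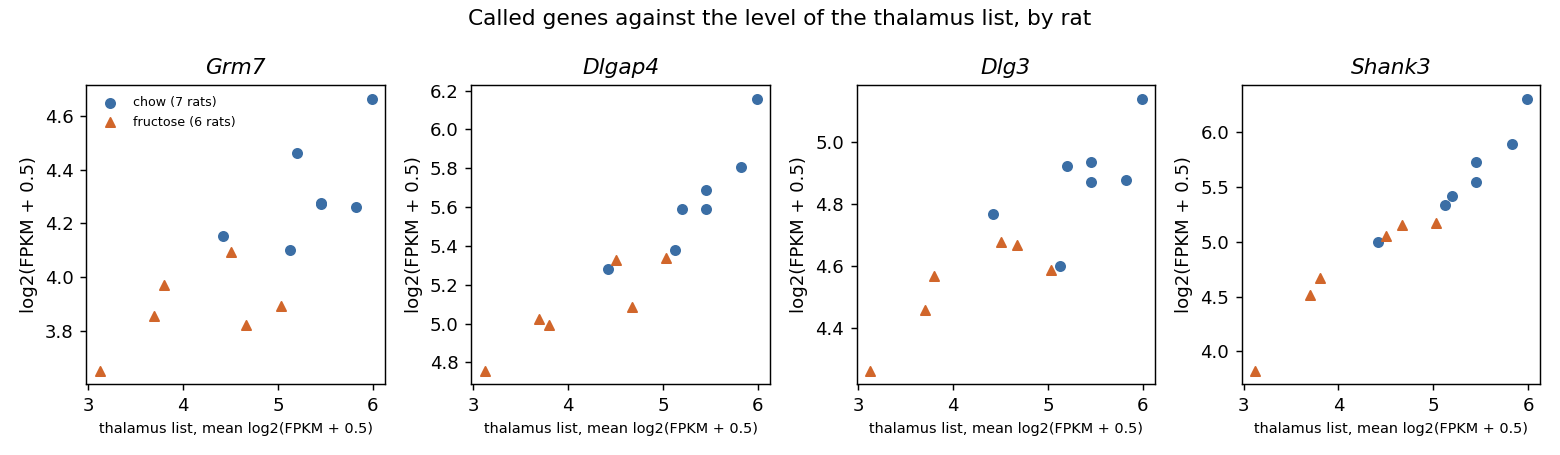
Log2 level of Grm7, Dlgap4, Dlg3 and Shank3 (vertical axes) against the mean log2 level of 16 thalamus markers (horizontal axes) in each of 7 chow and 6 fructose rats. Shank3 rises with the thalamus level in both diets (r of 0.953 and 0.955), and in Grm7 all fructose points lie below all chow points.

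With each rat left out in turn the falls kept their direction, while every call was lost in some fits. The log2 fold change stayed between -0.47 and -0.37 for Grm7, between -0.61 and -0.47 for Dlgap4, between -0.38 and -0.28 for Dlg3, and between -0.98 and -0.69 for Shank3. Grm7 was called in 10 of 13 fits, Dlgap4 in 6, Dlg3 in 5 and Shank3 in 4. Grm7 was lost without chow replicate 4 (limma adjusted p = 0.0517), fructose replicate 2 (0.0516) or fructose replicate 4 (0.0636). Dlgap4 was lost without these or without chow replicate 2, 5 or 7 or fructose replicate 6, at limma adjusted p between 0.0576 and 0.0785. Dlg3 was lost without any of these 7 rats or chow replicate 3 (between 0.0652 and 0.0938), and Shank3 without any of these 8 or fructose replicate 3 (between 0.0523 and 0.105). Leaving out chow replicate 4 gave 0 member calls, as did leaving out fructose replicate 2 or 4, with 15, 14 and 14 members at an unadjusted p under 0.05 by limma. Over all rows these fits called 103, 147 and 83, against 466 with all rats. At that unadjusted level stood 1989, 1925 and 1981 rows, against 2269 with all rats. Leaving out chow replicate 2, 5 or 7 or fructose replicate 6 gave 1 call, in fits that called 89, 187, 153 and 113 of all rows. Without chow replicate 3 there were 2 member calls and 304 over all rows. Leaving out fructose replicate 5 gave 8 and chow replicate 1 gave 9, in fits that called 599 and 859 of all rows. By the exact permutation test 16 members stood at an unadjusted p under 0.05, as did 2223 of all 11837 rows. With no filter on low values limma called 0 members, again with 16 at an unadjusted p under 0.05. Of all 17366 rows it called 130, and 2557 stood at that unadjusted level.

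Other genes of these synapses also fell. Of 60 genes in 5 lists 57 were tested, 11 fell (19.3%, where 3.94% of all rows changed) and 0 rose, and 40 had a negative fold change (median -0.15). At an unadjusted p under 0.05 by limma stood 25 of the 57, 22 lower and 3 higher, where 19.2% of all rows did. Of 12 auxiliary subunits of AMPA and kainate receptors 2 fell. Cnih2, a cornichon that escorts AMPA receptors and the most abundant of the list, went from 134 ± 12.5 to 104 ± 10.9 FPKM (-0.36 ± 0.075, limma adjusted p = 0.0258), and its diets did not overlap. Cacng5, a TARP, went from 8.78 ± 1.90 to 4.84 ± 1.42 FPKM (-0.82 ± 0.18, limma adjusted p = 0.0277). Of 13 genes of receptor trafficking and extracellular partners 1 fell, Grid2ip, a postsynaptic scaffold, from 10.3 ± 2.71 to 4.27 ± 1.98 FPKM (-1.27 ± 0.27, limma adjusted p = 0.0274). Nsf, an ATPase that binds Gria2 and the most abundant of that list, differed by -0.16 ± 0.069 (limma adjusted p = 0.235).

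Of 15 signalling genes of the postsynaptic density 4 fell. Camk2b, a calcium/calmodulin kinase gene, went from 243 ± 24.3 to 197 ± 16.3 FPKM (-0.30 ± 0.070, limma adjusted p = 0.0338), and its relative Camk2d fell as well (-0.35 ± 0.087, limma adjusted p = 0.0389). Camk2g of the same family differed the other way and did not pass (0.25 ± 0.096, limma adjusted p = 0.168). The others were Lrrc7, or densin (-0.89 ± 0.21, limma adjusted p = 0.0366), and Ppp1r9b, or spinophilin (-0.47 ± 0.13, limma adjusted p = 0.0496). Of 8 genes downstream of group I metabotropic receptors 3 fell and 8 had a negative fold change (median -0.49). Rgs4, which shortens G protein signals, went from 191 ± 54.96 to 84.1 ± 33.6 FPKM (-1.22 ± 0.24, limma adjusted p = 0.0205). Plcb4, a phospholipase, also fell (-0.79 ± 0.20, limma adjusted p = 0.0394). Ncdn, the most abundant of the list, differed by -0.42 ± 0.13 (limma adjusted p = 0.0768). Of 9 genes of glutamate release, uptake and synthesis 1 fell, 0 rose and 3 were lower at an unadjusted p under 0.05. Slc17a7 is 1 of these 3 and is also among the thalamus markers, so it enters both lists and the thalamus level. Glul, the glutamine synthetase of astrocytes and the most abundant of the list, differed by 0.034 ± 0.069 (limma adjusted p = 0.846).

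With 1 rat left out Rgs4 was called in 12 of 13 fits, Cnih2 in 10, Grid2ip in 8, Cacng5 in 7, Camk2b, Camk2d, Lrrc7 and Plcb4 in 5 each, and Ppp1r9b in 2. The 11 calls came to 2 without fructose replicate 4 or 6 or chow replicate 2, to 3 without chow replicate 4 or 7, to 4 without chow replicate 5 or fructose replicate 2, and to 6 without chow replicate 3. With the thalamus level as a covariate none of the 11 was called. In that fit 1 other list gene was called lower, the glutamate transporter Slc1a6 (-0.63 ± 0.12, limma adjusted p = 0.0467). Without the covariate Slc1a6 differed by -0.12 ± 0.15 (limma adjusted p = 0.7355). Fructose replicate 2 was the lowest rat in 10 of the 11 genes.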

How the data were processed

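RNA of whole hypothalamus was measured in 7 chow and 6 fructose rats. The authors deposited FPKM values in 1 table, and STAR 2.3.0e, Cufflinks 2.1.1 and Cuffdiff with rat build rn5 are listed per the submitters' processing notes. Their settings, order and any scaling between libraries are unknown here. Replicates were numbered in accession order, so a number names a rat only. Read depth is unknown, and p-values rest on the spread between rats.

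Values were analysed as log2(FPKM + 0.5), which understates changes of low genes. The 11837 rows with a mean of at least 0.5 FPKM were tested with limma 3.58.1 in R 4.3.3 (intensity trend, two-sided), with Benjamini-Hochberg adjustment over all of them. A call is an adjusted p under 0.05. The procedure was tested on simulated data.

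The members and lists were chosen with earlier results of these data known. Genes were named by a rule: each member called, the most abundant of each role, and the 12 with the smallest p. In the pathway lists it took each call and the most abundant gene, and Camk2g is given beside its relatives. Other members are given by their difference. Some genes that the rule takes are not reported here, though the counts hold them. Alternatives were other pseudocounts (0.1 and 1), filters (none, or a mean of at least 2 FPKM), scalings, array weights, robust fits, an exact permutation test, a threshold of 0.1, a thalamus covariate and leaving out each rat. Of the 60 pathway genes Gsg1l, Shisa9 and Iqsec1 were not matched. Promoter and microRNA sequences are from RefSeq (GRCr8), with the 50 bases after the start left out.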

Additional observations from a re-analysis of the deposited data

Results flagged for a closer look

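In 5 of the 80 gene and diet groups examined, 1 rat stood apart by Dixon's test at the 95% level, where chance gives about 5% of groups. The joined row of Gria2 was 939 FPKM in fructose replicate 4, far above the other fructose rats, and 66.1 FPKM in chow replicate 1, above the other chow rats. Grik5 was 48.8 FPKM in chow replicate 1 and Grin2d 16.6 FPKM in fructose replicate 1, each the highest of its diet. Homer1 was 5.81 FPKM in chow replicate 3, the lowest of its diet.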

How the results depend on the processing

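The 4 member calls came to 0 with no filter on low values, 0 by the exact permutation test, 0 with the thalamus covariate, 9 with array weights and 9 at an adjusted p under 0.1, and to between 0 and 9 with 1 rat left out. The 466 calls over all rows came to 130, 0, 29, 1019 and 915 under these alternatives, and to between 83 and 859 with 1 rat left out. The 0 of the exact test says nothing of the members, because no row of the table passed by it. At its smallest possible p stood 104 rows, where 138 would have been enough for them to pass. The 11 calls in the pathway lists came to 1, 0, 1, 17 and 17 under the same alternatives, and to between 2 and 16 with 1 rat left out. The 1 call with the thalamus covariate was Slc1a6, which was not among the 11. Under the other pseudocounts, the filter at 2 FPKM, both scalings, robust moderation and summed rows the members called stayed at 3 or 4. The cause of these shifts was not tested. With the thalamus covariate the sign turned for Shank3 (0.0135), Grm4 (0.0583), Dlgap3 (0.0571), Grin2c (0.1118), Homer3 (0.1186) and Grik5 (-0.0816). Homer3 also turned under quantile normalization (0.0030) and array weights (0.0247) and, with 1 rat left out, ranged from -0.0532 to 0.0490, being 0.0241, 0.0220, 0.0490 and 0.0204 without chow replicate 2, chow replicate 6, fructose replicate 2 and fructose replicate 4. Grik5 ranged from -0.0189 to 0.0647, being -0.0033, -0.0098, -0.0166, -0.0189 and -0.0036 without chow replicate 6, chow replicate 7, fructose replicate 3, fructose replicate 4 and fructose replicate 6. The median member level of 17.3 FPKM stayed between 16.6 and 17.8. No paired analysis was possible because replicate numbers follow accession order and pair no rats.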

Other observations

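Of the 11837 rows tested, 2 had 1 rat over 10 times above the next highest rat, a threshold chosen after the data were seen. They were the joined row of Gria2 and Mir2985 in fructose replicate 4, and Mir3567, at 312.6 FPKM in chow replicate 3 and listed at 0 in the next highest rat. Both rows name a microRNA, as 16 of the rows tested do.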
